A study of Mus musculus with 2 samples.

Results

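The 33 genes described here encode amino acid transporters of the plasma membrane and the lysosome, from the SLC1, SLC3, SLC6, SLC7, SLC36, SLC38 and SLC43 families. They were picked out by gene symbol from a list drawn up with earlier results of these data known, so the list is not blind to the data. All 33 were among the 23183 genes listed for each library. The values come from mRNA sequencing of mouse lung cancer cells, with 1 library of KPR- cells and 1 library of KPRrestored cells. KPR- is an immortalized line grown from a tumor of a KPRL/F-TAM(-) mouse, in which Ad-Cre had switched on K-Ras LSL-G12D/+ and Tomato and deleted p53 flox/flox and the flox copy of Runx3 flox/FSF. In both groups the cells therefore carried the activated K-Ras allele, lacked p53 and held the FlpERT2 recombinase. The KPR- library is labelled RUNX3 -/- and 0 h, and the KPRrestored library RUNX3 -/+ and 16 h. 4-OHT (4-hydroxytamoxifen) activates FlpERT2, which removes the Frt-Stop-Frt cassette from the FSF copy and restores *Runx3*, yet the labels give 1 μM 4-OHT for both libraries. Restoration, exposure to 4-OHT and hours in culture cannot be told apart in this design.

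Cells take up amino acids through carriers that differ in their driving force and substrates. Sodium-driven carriers of the SLC1 and SLC38 families concentrate amino acids in the cell, and exchangers of the SLC7 family then trade them for others, such as glutamine for leucine or glutamate for cystine. Most exchangers of the SLC7 family are light chains that reach the cell surface only when joined to a heavy chain of the SLC3 family. Cystine imported by the *Slc7a11* product (xCT) supplies cysteine for glutathione, and the leucine and arginine brought in by other carriers are sensed by mTORC1 at the lysosome. Several of these genes are known targets of ATF4, the transcription factor of the amino acid and integrated stress response, which binds C/EBP-ATF elements, and *Slc7a11* is also a known target of NRF2, which binds antioxidant response elements.

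The promoters of 4 of the genes are shown because *Slc7a11*, *Slc6a9* and *Slc1a4* had 3 of the 4 largest rises in the KPRrestored library once scarce transporters were set aside, while *Slc38a2* was the most abundant transporter in KPR- cells and was level between the libraries. *Slc7a3*, which had the other of these rises, had no window in the set of RefSeq promoters used here. Each window holds 250 bases before and 50 bases after an annotated start in RefSeq (GRCm38.p6, the same build as the mm10 of the files), 5′ to 3′ on the gene's strand. *Slc7a11* is shown from chr3:50443564-50443863 (minus strand), *Slc1a4* from chr11:20332664-20332963 (minus strand), *Slc6a9* from chr4:117849100-117849399 (plus strand, 1 of 3 annotated starts) and *Slc38a2* from chr15:96699679-96699978 (minus strand). Capitals mark matches on either strand to TGATGNAA, a short form of the C/EBP-ATF element, or to TGACNNNGC, the core of the antioxidant response element.
Slc7a11: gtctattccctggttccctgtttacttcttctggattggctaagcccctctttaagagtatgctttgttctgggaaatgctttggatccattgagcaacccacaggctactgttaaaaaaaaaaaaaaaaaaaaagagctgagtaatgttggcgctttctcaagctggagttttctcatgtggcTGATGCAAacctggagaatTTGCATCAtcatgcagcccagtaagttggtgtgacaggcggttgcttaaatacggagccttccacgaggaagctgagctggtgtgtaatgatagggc
Slc1a4: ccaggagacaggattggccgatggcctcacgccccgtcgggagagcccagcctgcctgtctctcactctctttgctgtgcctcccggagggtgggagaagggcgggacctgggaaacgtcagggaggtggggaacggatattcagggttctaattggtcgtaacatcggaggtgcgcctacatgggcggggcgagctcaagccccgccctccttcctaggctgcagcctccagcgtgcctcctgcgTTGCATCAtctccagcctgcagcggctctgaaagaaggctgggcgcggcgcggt
Slc6a9: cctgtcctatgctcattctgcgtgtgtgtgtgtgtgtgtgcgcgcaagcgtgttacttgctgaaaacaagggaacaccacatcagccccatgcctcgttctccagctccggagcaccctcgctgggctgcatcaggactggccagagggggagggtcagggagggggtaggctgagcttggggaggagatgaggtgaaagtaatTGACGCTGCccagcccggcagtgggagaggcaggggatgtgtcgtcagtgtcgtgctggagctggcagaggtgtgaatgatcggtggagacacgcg
Slc38a2: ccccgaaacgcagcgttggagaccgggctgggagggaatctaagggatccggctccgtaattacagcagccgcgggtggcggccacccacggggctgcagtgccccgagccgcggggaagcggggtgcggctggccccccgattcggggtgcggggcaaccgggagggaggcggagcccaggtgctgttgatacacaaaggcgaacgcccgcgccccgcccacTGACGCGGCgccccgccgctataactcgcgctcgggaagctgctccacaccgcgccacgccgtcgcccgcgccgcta

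The *Slc7a11* window held 2 C/EBP-ATF matches in opposite orientation, beginning 66 and 47 bases before the start, and the *Slc1a4* window held 1 match that overlaps the start. The windows of *Slc6a9* and *Slc38a2* each held 1 match to the antioxidant core and no C/EBP-ATF match. A further *Slc6a9* window (chr4:117855297-117855596) also held 1 antioxidant core match, while that at chr4:117835008-117835307 held neither motif. Letters outside the windows were not searched, so a missing match says nothing of the rest of the gene.

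Levels are given as FPKM (fragments per kilobase of transcript, scaled to the size of the library), which the authors estimated. FPKM values allow genes of different length to be set side by side. Differences are log2(FPKM + 0.005) in the library labelled KPRrestored minus that in the library labelled KPR-, and a gene is called higher or lower at 0.5 or more either way. There are no replicates, so no difference could be set against the spread between cultures and no p-value was computed. The depth, estimated from the steps between low FPKM values, was 21.75 M fragments in the KPR- library and 22.43 M in the other, and fragments per gene were derived from it. The 95% intervals (exact Clopper-Pearson) given with the differences rest on these fragments and cover counting error only.

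The epithelial markers *Epcam*, *Cdh1*, *Krt8*, *Krt18* and *Krt19* ranged from 91.6 to 1931 FPKM over both libraries, while *Sftpc*, *Sftpb*, *Sftpa1*, *Scgb1a1* and *Napsa*, which define alveolar and club cells, were listed at 0 in both and *Nkx2-1* was under 0.05 FPKM. The alveolar marker *Ager* was at 0.708 and 0.920 FPKM from about 19 and 26 fragments, and *Foxa2*, a transcription factor of lung epithelium, was at 10.7 and 16.1 FPKM, a difference of 0.60. Vimentin (*Vim*) was at 1777 and 1464 FPKM. Of 6 immune markers 1, *Cd68*, passed 1 FPKM on average, at 3.08 and 6.78 FPKM. *Adgre1*, *Cd3e* and *Lyz2* were listed at 0 in both libraries, *Ptprc* was under 0.01 FPKM, and the immune sum was 3.08 and 6.83 FPKM. Of 4 endothelial markers 1, *Kdr*, passed 1 FPKM, with a sum of 1.16 and 2.22 FPKM, and of the mesenchymal markers *Col1a1* was at 12.2 and 4.21 FPKM and *Dcn* at 0.173 and 0.742 FPKM. The part of these levels in the transporter values was not tested. *Runx3* itself was at 0.348 FPKM in KPR- and 0.349 FPKM in KPRrestored, from about 28 and 29 fragments, with an interval of -0.79 to 0.81. No rise was seen in the library labelled KPRrestored, and with so few fragments the value per gene does not check the labels.

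Of the 33 transporter genes, 13 were higher and 7 were lower by 0.5 or more in the library labelled KPRrestored. This corresponds to 39.4% and 21.2% of them, against 13.8% and 12.9% of all 23183 genes. When the 2 libraries were averaged, 22 transporter genes reached 1 FPKM. Among these, 9 were higher and 3 were lower, or 40.9% and 13.6%, against 12.1% and 9.29% of the 11231 genes that reached this mean. A rise of 1 or more was found for 6 of the 22 (27.3%, against 2.89% of the 11231 genes) and a fall of 1 or more for 1 (4.55%, against 1.38%). The share of higher genes was above the background on each of these rules, and the share of lower genes was closer to it. The list was drawn up with earlier results of these data known, so this is a description and not a test. *Slc7a3*, counted among the 9 and the 6, reached the mean of 1 FPKM only through the KPRrestored library.

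The median difference of the 22 transporters was 0.038, beside 0.0086 over the 11231 genes, and their upper quartile was 1.04 against 0.27. The median depended on the filter and was 0.61 for the transporters with a mean of at least 5 FPKM. FPKM summed over the 33 genes was 674 in KPR- and 902 in KPRrestored, a log2 ratio of 0.42. The 9 higher genes held 38.4% of this sum in KPR- and 58.3% in KPRrestored. They were picked for being higher in these same libraries, so their larger share follows from that choice.

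**Figure D1:**
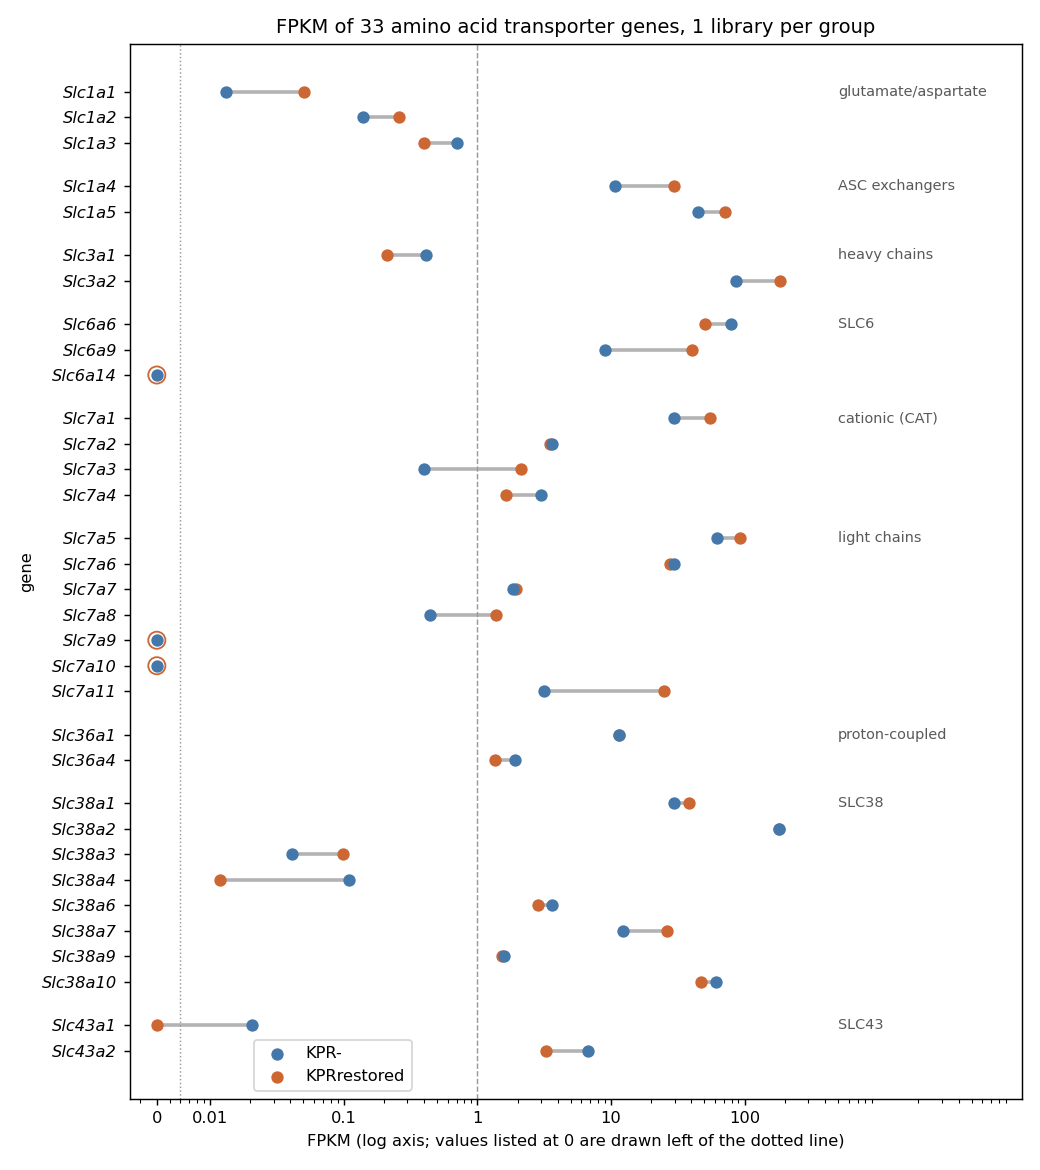
FPKM (log axis) of the 33 transporter genes in the KPR- library (blue) and the KPRrestored library (orange), grouped by role, with 1 library per group and genes listed at 0 drawn left of the dotted line and blue points drawn over orange ones. *Slc7a11* moves from 3.14 to 24.9 FPKM, while *Slc38a2* stays near 181 FPKM and *Slc6a14*, *Slc7a9* and *Slc7a10* are listed at 0 in both libraries.

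The heavy chain *Slc3a2* (CD98, chr19:8706882-8723369, minus strand), the partner of most light chains, was at 86.0 FPKM in KPR- and 184.6 FPKM in KPRrestored. It went from rank 2 to rank 1 among the 33 genes, with a difference of 1.10 (1.05 to 1.15) from about 4865 and 10768 fragments. The other heavy chain, *Slc3a1*, the partner of *Slc7a9* in kidney and gut, was at 0.414 and 0.212 FPKM from about 19 and 10 fragments, and its interval of -2.24 to 0.21 included 0. Exons of *Slc3a1* share 26.5% of their bases with *Prepl* on the other strand, which was at 10.6 and 11.8 FPKM.

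Among the light chains, *Slc7a11* (chr3:49892526-50443614, minus strand), which exchanges glutamate for cystine, had the largest difference. It was at 3.14 FPKM in KPR- and 24.9 FPKM in KPRrestored, or about 615 and 5022 fragments, a ratio of 7.92. Its difference of 2.98 (2.86 to 3.11) was at rank 17 from the top among the 11231 genes. *Slc7a5* (LAT1, chr8:121881150-121907694, minus strand), the main importer of leucine and other large neutral amino acids in growing cells, went from 62.4 to 91.6 FPKM, or about 4481 and 6791 fragments. Its difference of 0.56 (0.50 to 0.61) was past the threshold by a narrow margin.

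The remaining light chains were lower in level or did not pass the threshold. *Slc7a6* (y+LAT2), an exchanger of cationic and neutral amino acids, was at 29.5 and 27.7 FPKM, a difference of -0.095. *Slc7a7* (y+LAT1) was at 1.86 and 1.95 FPKM, and some of its exonic bases are shared with *Oxa1l* on the other strand, which was at 18.2 and 17.5 FPKM. *Slc7a8* (LAT2) was at 0.442 FPKM in KPR- and 1.38 FPKM in KPRrestored, with a difference of 1.63 (1.11 to 2.23) from about 37 and 120 fragments. Its mean was just under 1 FPKM, so it is not among the 22. *Slc7a9* and *Slc7a10* were listed at 0 in both libraries.

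Set beside its partners, *Slc3a2* was at 0.884 times the summed FPKM of *Slc7a5*, *Slc7a6*, *Slc7a7*, *Slc7a8*, *Slc7a10* and *Slc7a11* in KPR- and at 1.25 times that sum in KPRrestored. The sum itself went from 97.3 to 147.5 FPKM. *Slc7a5* made up 64.1% of it in KPR- and 62.1% in KPRrestored, *Slc7a6* went from 30.3% to 18.8%, and *Slc7a11* went from 3.23% to 16.9%. The make-up of the light chain mRNA thus differed mainly in the shares of *Slc7a11* and *Slc7a6*. These are mRNA levels, and the amount of joined protein was not measured.

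**Figure D2:**
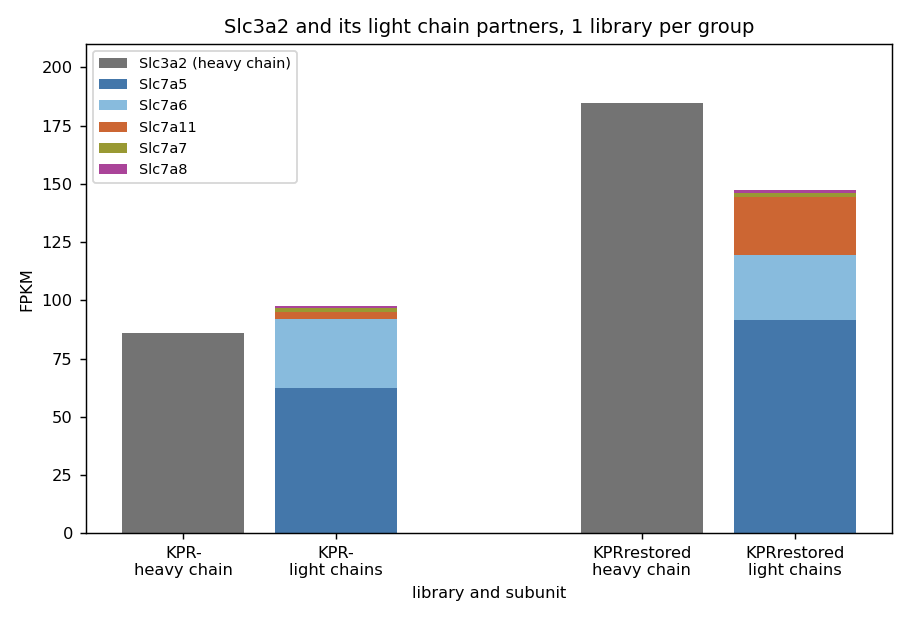
FPKM of the heavy chain *Slc3a2* (grey bars) and of its light chain partners (stacked bars) in the KPR- and KPRrestored libraries, 1 library per group (*Slc7a10*, listed at 0, is not drawn). The heavy chain is at 86.0 and 184.6 FPKM, and the light chains sum to 97.3 and 147.5 FPKM, with *Slc7a11* taking 3.23% and 16.9% of the sum.

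Both ASC exchangers, which carry small neutral amino acids, were higher in the library labelled KPRrestored. These 2 genes are too few to set against the 12.1% of all genes with a mean of at least 1 FPKM that were higher. *Slc1a4* (ASCT1, chr11:20302180-20332713, minus strand), a carrier of serine, alanine, cysteine and threonine, was at 10.7 FPKM in KPR- and 29.4 FPKM in KPRrestored, a difference of 1.45 (1.34 to 1.57) from about 867 and 2450 fragments. *Slc1a5* (ASCT2, chr7:16781340-16798274, plus strand), a main glutamine importer of tumor cells, was at 45.2 and 71.5 FPKM, a difference of 0.66 (0.59 to 0.73) from about 2507 and 4092 fragments. Their summed FPKM was 55.9 in KPR- and 100.9 in KPRrestored. In contrast, the 3 glutamate and aspartate carriers of the same family were all under 1 FPKM. *Slc1a3* was at 0.709 and 0.400 FPKM, *Slc1a2* at 0.140 and 0.261 FPKM, and *Slc1a1* at 0.013 and 0.051 FPKM from about 1 and 4 fragments.

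The cationic carriers, which bring in arginine and lysine, are too few to set against the 12.1% of all genes that were higher. Of these 4 carriers, 2 were higher. *Slc7a1* (CAT1, chr5:148327410-148399904, minus strand) was the most abundant of them, at 29.5 FPKM in KPR- and 55.2 FPKM in KPRrestored, a difference of 0.90 (0.85 to 0.96) from about 4470 and 8618 fragments. *Slc7a3* (CAT3, chrX:101079210-101086020, minus strand) was at 0.398 FPKM in KPR- and 2.11 FPKM in KPRrestored, from about 19 and 102 fragments. Its difference was 2.39 (1.66 to 3.17), and it reached a mean of 1 FPKM only through the KPRrestored library. *Slc7a2* (CAT2) was level at 3.59 and 3.52 FPKM. *Slc7a4*, a related gene with no established substrate (chr16:17572018-17583214, minus strand), was lower, at 3.01 and 1.63 FPKM, a difference of -0.88 (-1.23 to -0.55) from about 201 and 112 fragments. Its exons share 13.3% of their bases with *P2rx6* on the other strand, which was under 0.2 FPKM in both libraries.

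The SLC6 carriers moved in opposite directions. *Slc6a9* (GlyT1, chr4:117834506-117875198, plus strand), which takes up glycine together with sodium and chloride, was at 9.06 FPKM in KPR- and 40.4 FPKM in KPRrestored, a ratio of 4.46 and a difference of 2.16 (2.04 to 2.28). These rest on about 643 and 2961 fragments. It went from rank 13 to rank 8 among the 33 genes. Its exons share 27.8% of their bases with *Ccdc24* on the other strand, which was at 0.937 and 0.872 FPKM. *Slc6a6* (TauT, chr6:91684053-91759066, plus strand), the taurine transporter, was at 78.6 FPKM in KPR- and 50.9 FPKM in KPRrestored, a difference of -0.63 (-0.67 to -0.58) from about 10212 and 6816 fragments. It went from rank 3 to rank 6. *Slc6a14* was listed at 0 in both libraries.

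The SLC38 carriers made up the largest share of transporter mRNA in both libraries. Of the 8 genes, 6 had a mean of at least 1 FPKM, and 1 of these was higher. That is 16.7%, near the 12.1% of all genes with that mean. *Slc38a7* (chr8:95835920-95853539, minus strand), a lysosomal carrier of glutamine and asparagine, was at 12.3 FPKM in KPR- and 26.2 FPKM in KPRrestored, a difference of 1.08 (0.97 to 1.20) from about 837 and 1831 fragments. *Slc38a2* (SNAT2), a sodium-driven carrier of small neutral amino acids that is itself known to respond to amino acid shortage, was at 180.6 FPKM in KPR- and 181.7 FPKM in KPRrestored. Its difference of 0.0086 had an interval of -0.022 to 0.039 from about 17468 and 18121 fragments, so a change of 0.5 lay far outside the counting error of these libraries. Its share of the summed transporter FPKM went from 26.8% to 20.1%.

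The others of this family lay between the thresholds or were scarce. *Slc38a1* (SNAT1), a glutamine carrier, was at 29.6 and 38.3 FPKM, a difference of 0.37 (0.32 to 0.43). *Slc38a10* was at 61.2 and 47.5 FPKM, a difference of -0.36 (-0.42 to -0.31), and *Slc38a6* was at 3.64 and 2.86 FPKM. *Slc38a9*, the lysosomal arginine sensor of mTORC1, was level at 1.57 and 1.54 FPKM. *Slc38a3* was at 0.041 and 0.099 FPKM, and *Slc38a4* at 0.111 and 0.012 FPKM from about 9 fragments and 1 fragment.

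Of the carriers that work by proton coupling or by facilitated diffusion, 3 had a mean of at least 1 FPKM, which is too few to set against the 12.1% of all genes that were higher. *Slc36a1* (PAT1), a proton-coupled carrier of the lysosome and the plasma membrane, was level at 11.5 and 11.4 FPKM. *Slc36a4* (PAT4) was at 1.93 and 1.36 FPKM, a difference of -0.4998, just inside the threshold. *Slc43a2* (LAT4, chr11:75531694-75577575, plus strand), which lets large neutral amino acids pass down their gradient, was lower, at 6.71 FPKM in KPR- and 3.26 FPKM in KPRrestored, a difference of -1.04 (-1.20 to -0.88) from about 1011 and 507 fragments. *Slc43a1* (LAT3) was at 0.020 FPKM in KPR- from about 1 fragment and listed at 0 in KPRrestored.

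**Figure D3:**
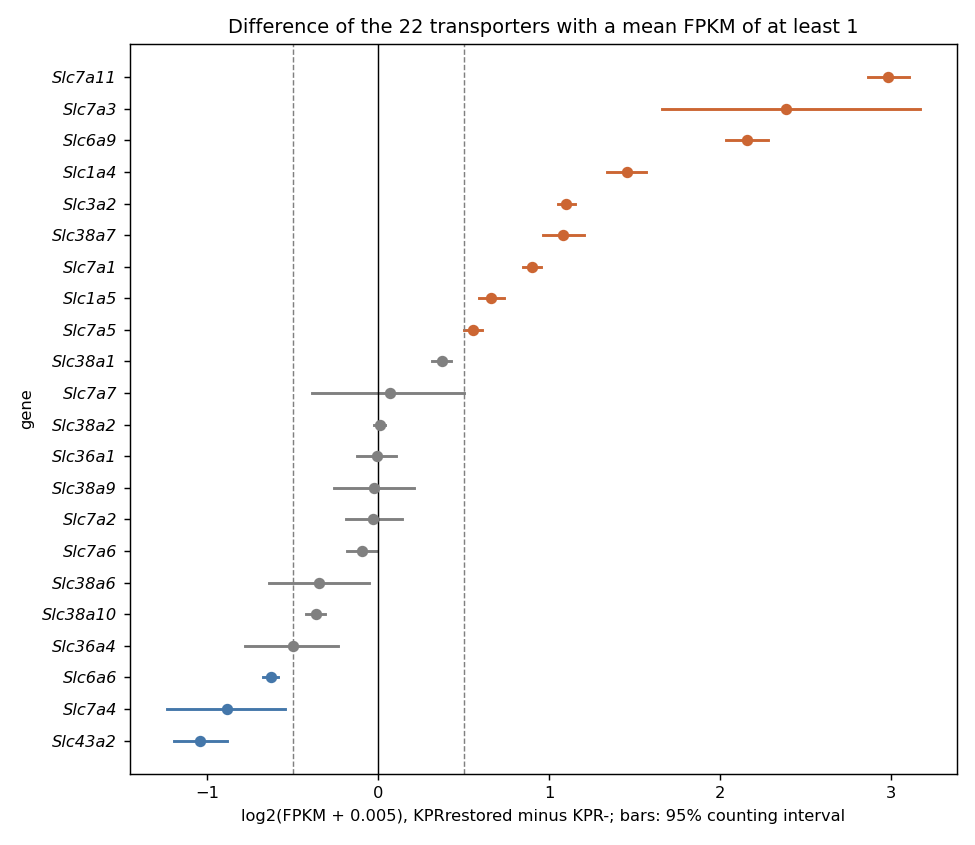
Difference in log2(FPKM + 0.005), KPRrestored minus KPR-, of the 22 transporters with a mean of at least 1 FPKM, with 95% counting intervals as bars and the threshold of 0.5 as dashed lines. The 9 higher genes run from *Slc7a5* at 0.56 to *Slc7a11* at 2.98, and the 3 lower genes are *Slc6a6*, *Slc7a4* and *Slc43a2*.

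The counting intervals of all 12 genes past the threshold with a mean of at least 1 FPKM excluded 0. So did those of 96.7% of the 2347 genes of that level past the threshold for which fragments could be estimated, so this does not set the transporters apart. Of the 8 transporters past the threshold with a lower mean, the intervals of 4 excluded 0, namely those of *Slc1a2*, *Slc1a3*, *Slc7a8* and *Slc38a4*. That of *Slc1a2* included 0 (-0.73 to 2.85) when its shortest coding transcript was used, which left about 5 and 10 fragments. Of the 22 genes, those with the least depth were *Slc7a3* with about 19 fragments and *Slc7a7* with about 84 fragments in KPR-.

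**Figure D4:**
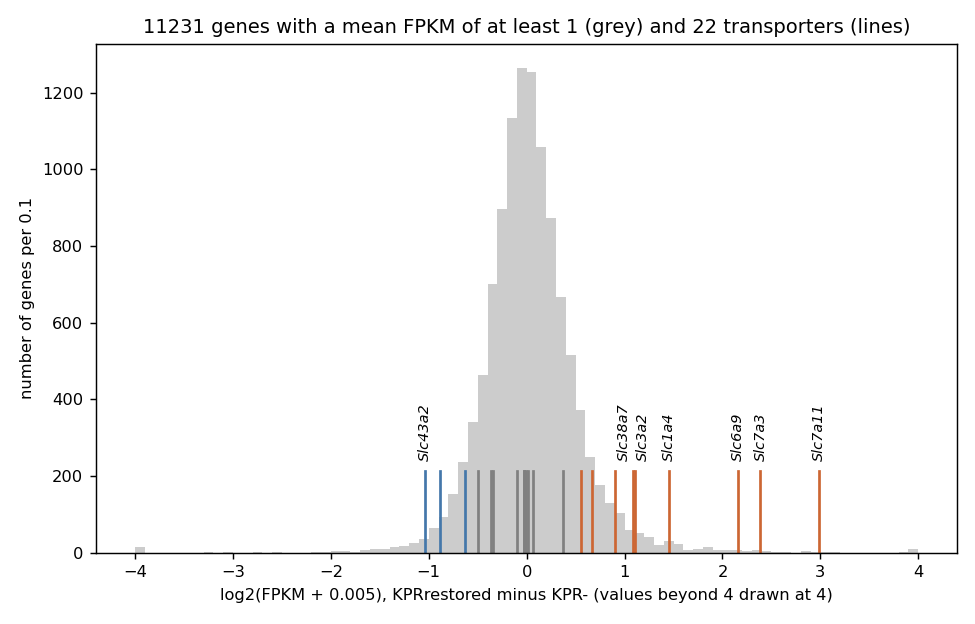
Number of genes per 0.1 of the log2 difference (KPRrestored minus KPR-) for the 11231 genes with a mean of at least 1 FPKM (grey), with the 22 transporters as lines (orange higher, blue lower, grey neither). The quartiles of all these genes are -0.23 and 0.27, and 6 of the 22 transporters lie at 1 or above.

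Most transporter mRNA came from few genes. In KPR- the 5 most abundant were *Slc38a2*, *Slc3a2*, *Slc6a6*, *Slc7a5* and *Slc38a10*, with 69.6% of the sum over all 33. In KPRrestored they were *Slc3a2*, *Slc38a2*, *Slc7a5*, *Slc1a5* and *Slc7a1*, with 64.8%. *Slc6a6* and *Slc38a10* thus gave way to a glutamine carrier and an arginine carrier. The number of genes at 10 FPKM or more was 12 in KPR- and 14 in KPRrestored.

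The set of RefSeq promoter windows used here covered 25 of the 33 genes. The C/EBP-ATF letters TGATGNAA were in the windows of *Slc1a4* and *Slc7a11*, 2 of the 6 higher genes with a window, and of *Slc7a7*, 1 of the 8 with a window that were neither higher nor lower. Of all 27025 genes with a window, 4.51% held these letters, and of the 8594 with a mean of at least 1 FPKM, 2.55% did. The antioxidant core TGACNNNGC was in those of *Slc6a9* and *Slc7a1* among the higher genes and of *Slc7a6*, *Slc36a1* and *Slc38a2* among those that were neither, as well as of the scarce *Slc43a1*, against 14.0% of all genes and 17.1% of those 8594. The E-box CACGTG, which MYC can bind, was in that of *Slc38a7* among the higher genes, and also of *Slc36a1* and *Slc43a1*, against 8.09% and 12.3%. The RUNX letters TGTGGT were in those of *Slc3a2*, *Slc6a9* and *Slc38a7* among the higher genes of *Slc43a2* among the lower ones and of *Slc36a1*, against 18.9% and 14.5%. All motifs were searched on both strands, and a match is a description of the letters only.

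Some of the transcription factors known to act on these genes were higher as well. Of 9 genes of the stress response, 6 were higher by 1 or more, against 2.89% of all genes with a mean of at least 1 FPKM. These 9 genes were listed with earlier results of these data known, so the comparison is a description and not a test. *Atf4* was at 144.9 FPKM in KPR- and 446.4 FPKM in KPRrestored, a difference of 1.62, and *Ddit3* (CHOP), *Atf5*, *Cebpb*, *Nupr1* and *Atf3* had differences from 1.45 to 2.98. *Cebpg* (0.36) and the kinases *Eif2ak3* (0.41) and *Eif2ak4* (-0.21) did not pass the threshold. Of 6 genes around NRF2, listed in the same way, 3 were higher (50%, against 12.1% of all genes with a mean of at least 1 FPKM). *Nfe2l2* (NRF2 itself) was at 63.9 and 109.1 FPKM, a difference of 0.77. Its small MAF partners *Maff* and *Mafk* had differences of 0.85 and 0.52, while its partner *Mafg* (0.29) did not pass the threshold. *Bach1* (0.22) did not pass it either, and the NRF2 inhibitor *Keap1* was level at 23.7 and 23.3 FPKM. *Myc* was at 73.6 and 117.1 FPKM, a difference of 0.67. Its partner *Max* (-0.014) and *Runx1* (0.17), *Runx2* (-0.38) and *Cbfb* (-0.19) did not pass the threshold. The part of these factors in the transporter levels was not tested.

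Of 36 other amino acid carriers, including the remaining genes of the same families and carriers of lysosomes and mitochondria, 6 were higher and 7 were lower (16.7% and 19.4%, against 13.8% and 12.9% of all genes). Of the 13 with a mean of at least 1 FPKM, 2 were higher and 1 was lower (15.4% and 7.69%, against 12.1% and 9.29%), with a median difference of -0.070. These shares were near those of all genes. The higher genes were *Slc43a3*, known as a carrier of nucleobases rather than amino acids, at 11.9 and 20.4 FPKM, and *Ctns*, which exports cystine from lysosomes, at 6.05 and 8.97 FPKM.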

How the data were processed

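Total RNA of KPR- and KPRrestored cells was isolated using Trizol, poly(A) RNA was selected, and directional libraries were sequenced as paired-end reads. Reads were trimmed and mapped using TopHat (mm10, per the submitters' processing notes), and Cufflinks gave the FPKM of 23183 genes in each of 2 libraries, and the authors deposited these values. The paper also names a geometric normalization of the read counts using EdgeR, and whether the deposited values carry it is not stated. If they do, the depths estimated from them are scaling factors rather than numbers of mapped fragments. The versions and the annotation are not given in the sources used here, nor whether strand was used in the estimate, so reads of genes that overlap on opposite strands may not be separated.

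The members and gene lists were chosen with earlier results of these data known. Differences were computed as log2(FPKM + 0.005), which understates the change of genes near the pseudocount, with a threshold of 0.5 and a filter of a mean of 1 FPKM. Named with their values were the transporters with that mean, and those other carriers and regulators past the threshold with that mean, with *Atf4*, *Nfe2l2* and *Runx3* always named. Values of scarce transporters, of further carriers, of other regulators, of cell type markers and of genes that overlap a transporter were added after they were seen.

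Depth was estimated from the steps of low FPKM values of genes with a single GENCODE M21 transcript, giving 21.75 M and 22.43 M and an average fragment of 214 bases. Of the 598 and 610 genes used, 76.3% and 78.7% lay within 0.1 of a whole number of fragments. Fragments per gene were then estimated with the longest transcript that has a RefSeq counterpart, which overstates them where a shorter transcript is used. The steps were tested on simulated data with 1 length per gene, as the fit assumes. That test could not show errors from transcripts of other lengths or from how reads were assigned. Of the symbols, 22110 matched GENCODE directly and 653 through a synonym, and *Slc66a1* was matched to the older symbol *Pqlc2*. The planned comparison of protein sequences was not made. Alternatives were other pseudocounts, filters and scalings, and the shortest coding transcript. Intervals were computed using scipy 1.17.1 and tables using pandas 2.3.3 and numpy 2.4.6 in Python 3.11.15, with plots from matplotlib 3.10.9.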

Additional observations from a re-analysis of the deposited data

How the results depend on the processing

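The 9 higher and 3 lower transporters were the same genes under pseudocounts of 0.1 and 1. Scaling to the same FPKM total or upper quartile, or centring on the median gene, added *Slc36a4* to the lower genes. After removal of the dependence of the differences on transcript length, an alternative chosen after seeing the data, *Slc38a1* joined the higher genes (0.55), *Slc6a6* (-0.499) left the lower ones, and the median of the 22 genes was 0.18. With a mean of at least 5 FPKM the median was 0.61 and the number of lower genes was 1, as it was with a threshold of 1, while with no filter it was 7. The direction of the 12 genes past the threshold was kept in all 84 values under 7 alternatives. These alternatives could hardly reverse differences of this size, so the kept direction adds no evidence. Of the 84 values, 7 fell outside the counting interval of their gene. The values of *Slc7a3* ranged most, from 1.15 with a pseudocount of 1 to 2.38. Estimates from the shortest coding transcript moved beyond the counting error for 4 of the 22 genes, and the intervals of all 12 genes still excluded 0, while that of the scarce *Slc1a2* did not. With 1 library per group, the spread between cultures is unknown.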

Other observations

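Of 10 amino acid carriers of the mitochondrial inner membrane, 8 had a mean of at least 1 FPKM. Of these, 0 were higher and 1 was lower in the library labelled KPRrestored, with a median difference of -0.16. These 8 genes are too few to set against the 12.1% and 9.29% of all genes. *Slc25a13* (citrin), an aspartate and glutamate exchanger, was at 18.7 FPKM in KPR- and 12.6 FPKM in KPRrestored, a difference of -0.57 (-0.70 to -0.44), while its close relative *Slc25a12* (aralar) was at 13.6 and 12.9 FPKM. *Slc25a15*, the ornithine carrier, was at 5.28 and 3.77 FPKM, a difference of -0.48. *Sfxn1*, a mitochondrial serine carrier, was at 27.2 and 23.0 FPKM. Of the lysosomal carriers outside the 33 genes, *Pqlc2*, an exporter of cationic amino acids, was at 7.11 and 10.0 FPKM, a difference of 0.497, just under the threshold, and *Slc15a4* was level at 16.6 and 15.8 FPKM.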
